A study of Mus musculus with 6 samples.

Results

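Receptors for glutamate and GABA are encoded by 47 of the 21938 protein-coding genes in the mouse annotation, and accessible chromatin at these 47 genes was compared between astrocytes with and without the glucocorticoid receptor (GR). Members were taken by symbol: Gria, Grik, Grid and Grm genes that carry a number, the Grin1, Grin2 and Grin3 genes, and all Gabr and Gabbr genes. A gene that shares the Grid prefix but encodes a binding partner rather than a receptor was left out. A peak or site was counted for a gene when its summit or centre lay in the gene body or within 20 kb of it.

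The libraries came from primary visual cortex (V1) of GR fl/fl mice at postnatal day 21. Around birth the pups had received an AAV2/5 vector in which the GfaABC1D promoter, active mainly in astrocytes, drove either Cre (GR-KO) or ΔCre, which cannot recombine DNA (GR-con), each joined through T2A to EGFP-KASH-4x6T, which tags the nuclear envelope. Both conditions therefore carried the floxed alleles, the virus and the tag. Nuclei positive for DRAQ5 and GFP were sorted and used for ATAC-seq, in which a transposase cuts open DNA, with 3 libraries per condition. Each library pooled several mice, so the spread between libraries is a spread between pools, and the sorted nuclei are those the virus reached rather than all astrocytes.

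Glutamate opens the AMPA, kainate and NMDA receptor channels and also acts through metabotropic receptors coupled to G proteins, while GABA opens the GABA-A channel and signals through the GABA-B receptor. Neurons carry most of these proteins at synapses. Astrocytes carry a narrower set, by which they sense transmitter released nearby, and they clear glutamate and GABA through transporters. GR is a hormone-activated transcription factor that binds DNA as a dimer at palindromic sites, often in distal enhancers.

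The 6 lists held 179462 to 198929 peaks, of which 91.7 to 94.6% had a q-value under 0.01. A list can give several summits within the same interval, as it does near Grin2d, and each summit is listed as a peak. Counts of peaks are therefore counts of summits, not of separate open regions. The lists give no read counts, so depth is unknown and a longer list cannot be told apart from a deeper library. The promoters of all 9 astrocyte markers examined (Aldh1l1, Slc1a2, Slc1a3, Aqp4, Gja1, Gfap, Aldoc, Sox9 and Gjb6) had a peak in every library. A promoter peak in every library was also found for 6 of 10 neuronal markers, 3 of 7 markers of the oligodendrocyte lineage, 2 of 5 of microglia and 3 of 4 of endothelium. Over the markers with a promoter peak in a library, its median −log10 p for astrocytes was 178 to 214 in GR-con and 159 to 173 in GR-KO. For neurons it was 25.4 to 29.2 over 7 of 10 markers in each GR-con library and 18.4 to 24.1 over 8 of 10 in each of GR-KO. Neurod6 had no promoter peak in any library. These medians cover a wide range, with 119 to 165 at the neuronal gene Snap25 and 155 to 228 at Pdgfra and 130 to 165 at Cspg4, both of the oligodendrocyte lineage. Peaks at the neuronal markers, summed per 100000 peaks of the list, numbered 65.8 to 67.9 in GR-con and 73.3 to 78.6 in GR-KO, and those at the astrocyte markers 129 to 144 and 146 to 151. In neither marker list did the conditions overlap, and the part of this in the results below was not tested. Every GR-con list was longer than every GR-KO list (184618 to 198929 against 179462 to 184056 peaks). Equal counts therefore give higher values per 100000 in GR-KO. The loss of GR itself was not checked here.

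Receptor genes took a like share of every list. GR-con 1, 2 and 3 had 948, 975 and 1015 peaks at the 47 genes, and GR-KO 1, 2 and 3 had 956, 970 and 964. The share of the list was 0.517% ± 0.010 (SD) in the 3 GR-con libraries and 0.528% ± 0.00451 (SD) in the 3 of GR-KO, and the ranges overlapped. Peaks were sparse for the size of these genes. The median receptor gene in GR-con had 5.88 peaks per 100 kb of its window against 11.5 for all coding genes, and among genes of at least 100 kb the medians were 5.56 for 26 receptor genes and 9.53 for 2492 coding genes. These medians describe the annotation and were not tested.

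When peaks were merged into 133271 consensus sites of 401 bp, each with a peak in at least 2 libraries, 717 sites (0.538%) lay at receptor genes. Of these, 500 were intronic, 20 exonic and 92 within 1 kb of a transcription start site (TSS) of the receptor gene, with 49 in the upstream and 56 in the downstream flank. For 147 of the 717 the nearest coding TSS belonged to another gene, and 10 were shared by more than 1 receptor gene. A peak in all 6 libraries was present at 417 sites (58.2%), compared with 65.0% of all sites. The median site stood at percentile 55.3 of fold enrichment within its lists, against 63.8 over all sites. Fold enrichment here compares the pileup at a summit with the nearby background, and percentiles rank it among all peaks of that library.

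**Figure D1:**
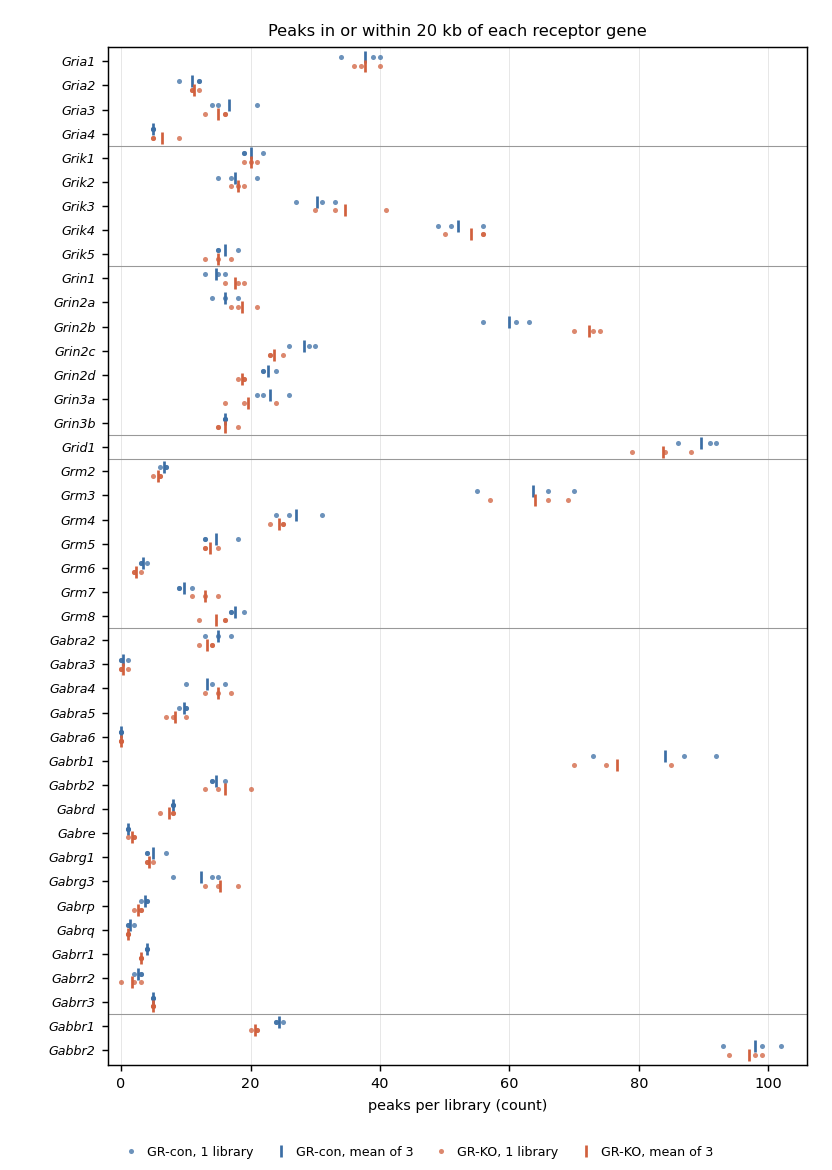
Peaks in or within 20 kb of receptor genes, as a count per library on the horizontal axis, with genes on the vertical axis grouped from top to bottom as AMPA, kainate, NMDA, delta, metabotropic glutamate, GABA-A and GABA-B receptors. Points are single libraries (blue GR-con, orange GR-KO) and bars are means of 3. Counts run from 0 at Gabra6 to 102 at Gabbr2, and Grin2b shows the GR-KO points, 70 to 74, to the right of the GR-con points, 56 to 63.

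Among glutamate-gated channels, the 4 AMPA receptor genes had 53 sites and all 4 had a promoter peak in every library. Gria2 encodes the subunit that makes AMPA channels poorly permeable to calcium. It had 9, 12 and 12 peaks in GR-con and 12, 11 and 11 in GR-KO. Its promoter peak stood at percentile 72.0 ± 2.96 in GR-con and 75.4 ± 2.00 in GR-KO (SD, n = 3), with ranges that overlapped. The 5 kainate receptor genes had 102 sites, and Grik3 was the 1 without a promoter peak in any library although 27 to 41 peaks lay in its window.

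The 7 NMDA receptor genes had 137 sites and a promoter peak in every library. Grin2c, an NMDA subunit expressed in astrocytes of the forebrain and in cerebellar granule cells, had the receptor window with the densest peaks, at 48.8 per 100 kb in GR-con. The gene spans 18075 bp and its window adds 20 kb on each side, where peaks could belong to a neighbour. Grin2c had 30, 26 and 29 peaks in GR-con and 23, 25 and 23 in GR-KO. Grin1, which encodes the subunit present in every NMDA receptor, had 13, 15 and 16 peaks in GR-con and 16, 18 and 19 in GR-KO, with 16 found in both conditions. Of the pair of delta receptor genes, whose products act as synaptic organisers, Grid1 had 86, 92 and 91 peaks in GR-con and 84, 79 and 88 in GR-KO.

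The 8 metabotropic glutamate receptor genes had 111 sites, 46 of them at Grm3 alone. Grm3, a receptor that lowers cyclic AMP and is abundant in mature astrocytes, had 66, 55 and 70 peaks in GR-con and 57, 69 and 66 in GR-KO. Grm5, which couples to calcium release and is a receptor of young astrocytes, spans 550740 bp and had only 13, 18 and 13 peaks in GR-con and 13, 13 and 15 in GR-KO. The promoter of Grm3 stood at percentile 68.2 ± 0.91 in GR-con and 65.9 ± 2.19 in GR-KO, and that of Grm5 at 77.7 ± 3.14 and 76.4 ± 3.69 (SD, n = 3).

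Of the 19 GABA-A receptor genes, 11 had a promoter peak in all 6 libraries and 5 in none, namely Gabra6, Gabrp, Gabrr1, Gabrr2 and Gabrr3. Gabrb1, a beta subunit, carried 55 of the family's 131 sites, with 73, 87 and 92 peaks in GR-con and 75, 85 and 70 in GR-KO. Gabra2 and Gabrg1 lie in the same cluster of chromosome 5 and encode an alpha and a gamma subunit expressed by astrocytes. Gabra2 had 13, 15 and 17 peaks in GR-con and 14, 14 and 12 in GR-KO, and Gabrg1 had 4, 4 and 7 against 4, 4 and 5. Gabra6, a subunit of cerebellar granule cells, had no peak in any library, Gabra3 had 1 peak in GR-con 3 and 1 in GR-KO 2, and Gabre had 1 or 2 in each.

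Both GABA-B receptor genes had a promoter peak in every library. Gabbr2, which couples the receptor to G proteins, had more peaks than any other member, 93, 99 and 102 in GR-con and 99, 98 and 94 in GR-KO. Gabbr1, which binds GABA, had 24, 25 and 24 in GR-con and 20, 21 and 21 in GR-KO, with no overlap.

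The genes above whose proteins are known from astrocytes (Gria2, Grin2c, Grm3, Grm5, Gabra2, Gabrb1, Gabrg1, Gabbr1 and Gabbr2) all had a promoter peak in every library (9 of 9), compared with 27 of the other 38 genes. Among genes with a promoter peak in a library, the median −log10 p was 127 to 145 for the 9, 57.3 to 73.2 for the 28 or 29 others and 248 to 265 over all coding genes. The median percentile of fold had another order, at 69.9 to 75.9 for the 9, 74.5 to 81.3 for the others and 89.8 to 90.9 over all coding genes, and in each library that of the 9 was the lowest. The groups overlapped gene by gene, since the mean −log10 p in GR-con was 62 at Grin2c and 50 at Grm5 but 291 at Grik4 and 245 at Grin3a, which are not among the 9. The 9 were listed with earlier results of these data known, so these medians are a description.

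**Figure D2:**
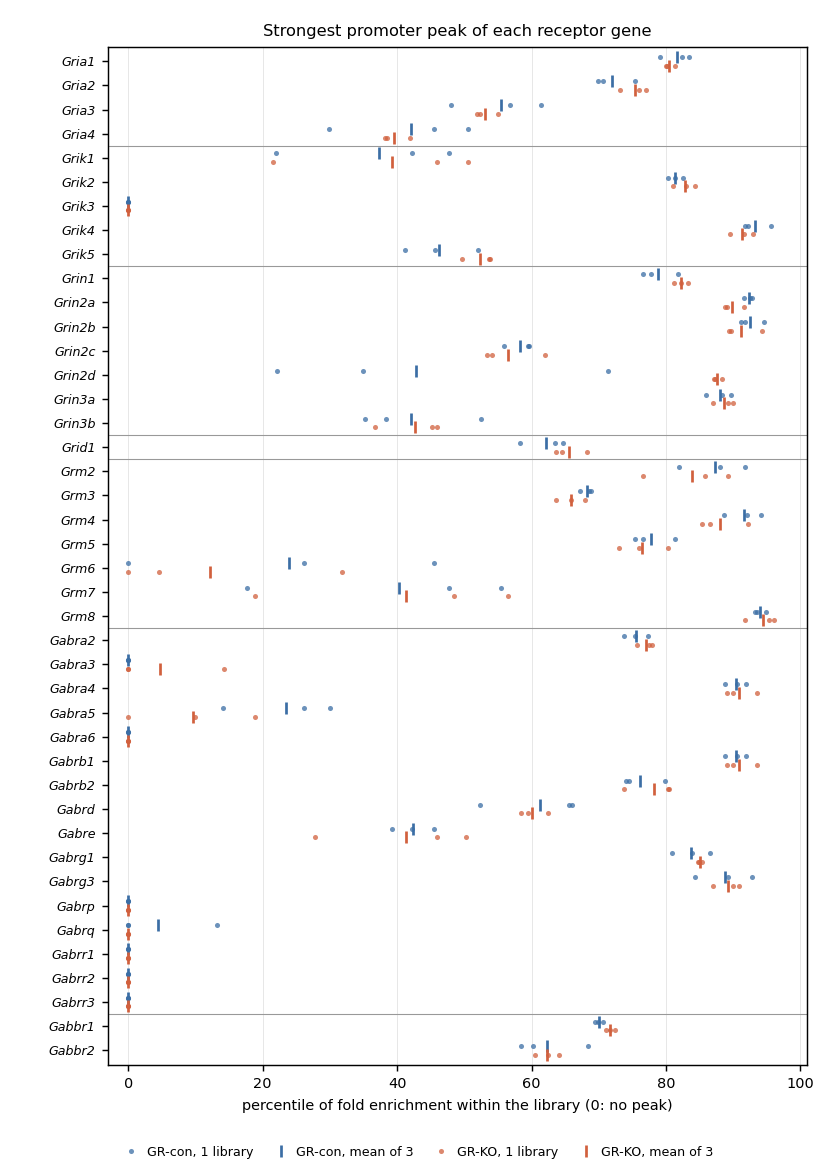
Strongest peak with its summit within 1 kb of a TSS of receptor genes, as the percentile of its fold enrichment among all peaks of the library (horizontal axis, 0 where there was no peak), with genes in the same order from AMPA to GABA-B receptors. Points are single libraries and bars are means of 3 (blue GR-con, orange GR-KO). Grin2d is the gene whose conditions stand far apart, at 22.1 to 71.4 in GR-con and 87.2 to 88.4 in GR-KO, and genes such as Gabra6 and Grik3 sit at 0 in every library.

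Whether the loss of GR changed the number of peaks at receptor genes was tested on log2(peaks per 100000 + 0.5) over the 16599 coding genes with a mean of at least 3 peaks, with limma. As stated above, these are counts of summits, several of which can lie in the same interval. The number of separate intervals was not tested. Of the receptor genes, 39 could be tested and 0 were called at an adjusted p under 0.05. The background was equal, with 0% of all genes called and a smallest adjusted p of 0.128. At an unadjusted p under 0.05 there were 2 receptor genes with fewer and 3 with more peaks in GR-KO, beside 606 (3.65%) and 638 (3.84%) of all genes. The log2 difference was above 0 for 19 and below 0 for 20, with a median of −0.03 against 0.02 over all genes. Peaks per 100000 were higher in every GR-KO library than in any GR-con library at 5 receptor genes (12.8%, against a background of 11.2% of all genes), and lower in every one at 5 (12.8%, against 4.33%). Since every GR-con list was longer than every GR-KO list, a gene with equal counts is scored as higher by this measure. The 5 higher included Gabrr3, with 5 peaks in every library. They also included Gria4, with 5, 5 and 5 peaks in GR-con and 5, 5 and 9 in GR-KO.

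The 3 receptor genes of smallest p with more peaks were Grin2b, Grm7 and Grin1. Grin2b, the NMDA subunit of the immature brain, had 56, 63 and 61 peaks in GR-con and 70, 74 and 73 in GR-KO, and the conditions did not overlap. The log2 difference was 0.32 (SE 0.0649), with an unadjusted p of 0.00025 and an adjusted p of 0.317 (limma). Grm7, a presynaptic receptor of neurons, had 9, 9 and 11 peaks in GR-con against 15, 13 and 11, a difference of 0.44 (SE 0.132, adjusted p = 0.443 from limma). For Grin1 it was 0.31 (SE 0.105, adjusted p = 0.494 from limma). As given above, the neuronal and the astrocyte marker genes both had more peaks per list in GR-KO, with a median log2 difference of 0.13 in each list. The part of this in the counts was not tested.

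On the other side stood Grin2d, Grin2c and Gabbr1. Grin2d, an NMDA subunit of interneurons, had 22, 22 and 24 peaks in GR-con and 19, 19 and 18 in GR-KO. The log2 difference was −0.21 (SE 0.0867, adjusted p = 0.581 from limma). For Grin2c it was −0.20 (SE 0.0865, adjusted p = 0.624) and for Gabbr1 −0.17 (SE 0.0863, adjusted p = 0.689). These 3 are among the 5 receptor genes lower without overlap, and no difference passed the adjustment.

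Promoter peaks were compared by turning the fold of the strongest peak within 1 kb of a TSS into normal scores of its rank, over 14982 genes with such a peak in at least 2 libraries. Of 38 receptor genes tested, 1 was called higher in GR-KO, beside 0.0601% of all genes, and 0 lower, beside 0.100% of all genes. At an unadjusted p under 0.05 there was 1 in each direction among receptor genes, and 784 (5.23%) lower and 702 (4.69%) higher among all genes. The gene called was Grin2d, whose strongest promoter peak reached 3.02-fold, 3.67-fold and 7.54-fold enrichment in the GR-con libraries and 14.7-fold, 14.5-fold and 14.8-fold in those of GR-KO. Its score differed by 1.27 (SE 0.168, adjusted p = 0.0238 from limma; 0.00056 to 0.860 over the alternatives).

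This call rested on the edge of the window. All 6 libraries had a peak at about the same place, downstream of an internal Grin2d start site at position 45867129 of chromosome 7 (mm10). Its summit lay 996, 992 and 999 bp from that start site in GR-KO 1, 2 and 3, just inside 1 kb, and 1006, 1002 and 1009 bp in GR-con 1, 2 and 3, just outside. The fold at that summit was 14.5, 15.3 and 12.3 in GR-con, beside 14.7, 14.5 and 14.8 in GR-KO, so the conditions overlapped. With a window of 1500 bp, a width chosen after seeing these values, the difference was 0.05 (SE 0.0793, adjusted p = 0.860 from limma), and with 500 bp no receptor promoter was called. Leaving out GR-con 3 kept the call at 1 kb (adjusted p = 0.00056), and leaving out any of the other libraries gave 0.0737 to 0.122.

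**Figure D3:**
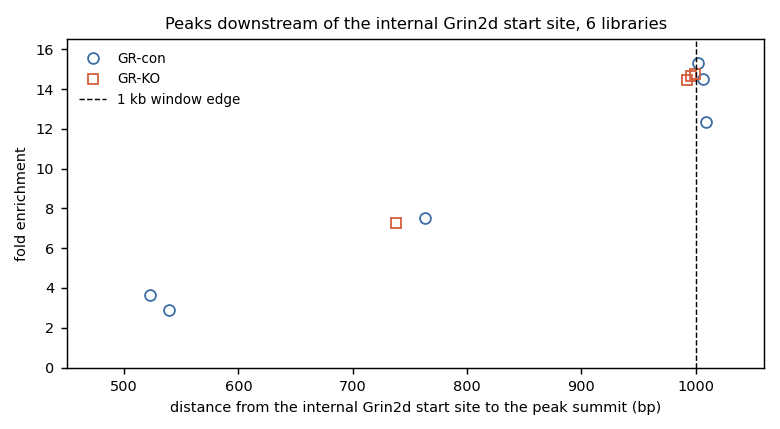
Fold enrichment (vertical axis) of every peak downstream of the internal Grin2d start site, against the distance from that site to the summit in bp (horizontal axis), for the 3 GR-con (circles) and 3 GR-KO (squares) libraries. The dashed line marks 1000 bp. The strongest peak of each library lies between 992 and 1009 bp, with the GR-KO summits to the left of the line and the GR-con summits to the right.

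The other promoter differences of smallest p were not called. Grin2a, the NMDA subunit that replaces Grin2b as the brain matures, had a promoter percentile of 92.3 ± 0.62 in GR-con and 89.8 ± 1.50 in GR-KO (SD, n = 3). Its score difference was −0.24 (SE 0.0855, adjusted p = 0.384 from limma). Grm4 and Grik4 were also lower in score, by −0.31 (SE 0.144, adjusted p = 0.516) and −0.22 (SE 0.123, adjusted p = 0.575), and Grin1 higher, by 0.16 (SE 0.0770, adjusted p = 0.520). Gabrb1 and Gabra4 are read in opposite directions from neighbouring start sites and shared 1 promoter peak, at percentile 90.5 ± 1.56 in GR-con and 90.9 ± 2.36 in GR-KO (SD, n = 3).

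Site by site, fold enrichment was ranked within each library, and normal scores of the ranks entered a limma fit over all 133271 sites. A library counted as having a peak where an interval covered more than 200 bp of the site. Of the 717 receptor sites, 5 were called higher in GR-KO (0.697%, against a background of 0.186% of all sites) and 1 lower (0.139%, against 0.337%). At an unadjusted p under 0.05 there were 56 higher (7.81% against 6.70% of all sites) and 32 lower (4.46% against 5.42%). The median score difference was 0.06 against 0.03 over all sites. Of the 6 sites called, only that of Gabrg3 had peaks in both conditions by this rule. The others entered the fit through the condition in which they were high, so a difference there was fixed in part by the requirement of a peak in at least 2 libraries, and their count supports nothing by itself. Sites at the same gene share their locus and are not independent, and an ATAC peak cannot tell more open DNA per nucleus from more nuclei in which it is open.

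**Figure D4:**
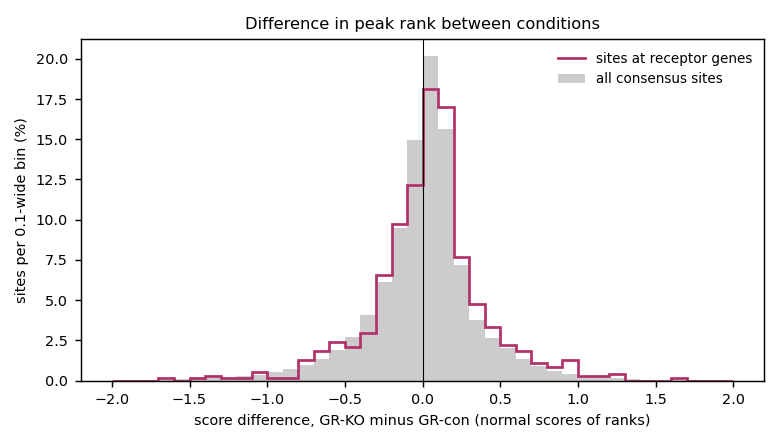
Distribution of the score difference, GR-KO minus GR-con (horizontal axis, normal scores of within-library ranks), in bins of width 0.1, as the percent of sites (vertical axis), for all 133271 consensus sites (grey bars) and the 717 sites at receptor genes (line). Both centre near 0, with medians of 0.06 for receptor sites and 0.03 for all sites.

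How a peak was assigned to a site decided most of these calls. When a library was instead credited with a peak only where a summit fell inside the site, 890 of 160877 sites lay at receptor genes, and 2 were called higher (0.225%, against a background of 0.0609%) and 1 lower (0.112%, against 0.127%). The 2 higher were the intronic sites of Gabra4 and Gabrg3, which were called under both rules. The 1 lower was another site, described with Grid1 below. The count of 6 called sites is therefore given with the peaks behind each.

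Gabra4 encodes an alpha subunit of extrasynaptic GABA-A receptors. The site, chr5:71590332-71590732 in mm10, lies in an intron 67288 bp downstream of the Gabra4 TSS, and the nearest coding TSS is that of Cox7b2 at 42327 bp. No GR-con library had a peak that touched it, and GR-KO 1, 2 and 3 had peaks of fold 9.21, 6.06 and 8.79, with summits within 4 bp of the site's centre. In GR-KO this put it at percentile 69.8 ± 7.87 (SD, n = 3) of the lists. The score differed by 1.62 (SE 0.168, adjusted p = 0.0230 from limma; 0.0164 to 0.247 over the alternatives). As the site met the requirement of a peak in at least 2 libraries through GR-KO alone, this difference was fixed in part. Leaving out GR-KO 2 kept the call (adjusted p = 0.0241), and leaving out any of the other libraries gave adjusted p values of 0.0611 to 0.0811.

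At Gabrg3, a gamma subunit gene of 670724 bp, the site chr7:57214080-57214480 lies in an intron 172591 bp from the TSS. It had a peak over its whole length in every library. The fold was 17.0, 16.2 and 13.8 in GR-con and 22.0, 23.2 and 21.7 in GR-KO, without overlap, and the percentile 89.5 ± 1.35 and 96.9 ± 0.63 (SD, n = 3). The −log10 p of the peak was 100, 80.8 and 77.4 in GR-con and 209, 231 and 197 in GR-KO. The score differed by 0.74 (SE 0.0891, adjusted p = 0.0350 from limma; 0.0111 to 0.267 over the alternatives). Without any 1 of the 6 libraries the adjusted p was 0.0685 to 0.0966.

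The 100 bp to each side of the centre of these sites are shown on the forward strand of GRCm38, with ACTGTA in capitals, a 6-mer that an earlier look at these data had singled out.
Gabra4 intron: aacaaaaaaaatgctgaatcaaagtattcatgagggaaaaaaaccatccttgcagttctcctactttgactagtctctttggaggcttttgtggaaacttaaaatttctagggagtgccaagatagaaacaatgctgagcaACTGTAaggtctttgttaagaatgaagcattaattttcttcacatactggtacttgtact
Gabrg3 intron: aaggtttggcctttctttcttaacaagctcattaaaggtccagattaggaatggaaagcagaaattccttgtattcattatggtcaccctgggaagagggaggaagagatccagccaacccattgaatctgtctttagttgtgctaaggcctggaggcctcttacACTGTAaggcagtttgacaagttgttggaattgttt

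Grin2a and Gabrb2, a beta subunit common at synapses, each had an intronic site called higher, but with a shorter GR-con peak in 1 library. At Grin2a (chr16:9971412-9971812) the fold was 4.69, 5.87 and 5.80 in GR-KO, and GR-con 2 had a peak of fold 2.63 that covered 150 bp of the site. At Gabrb2 (chr11:42525607-42526007) it was 5.06, 4.92 and 5.05 in GR-KO, and GR-con 1 had a peak of fold 4.54 that covered 188 bp. Those peaks fell short of the 200 bp rule and were entered as 0. The adjusted p was 0.0318 at Grin2a (0.0220 to 0.277 over the alternatives) and 0.0345 at Gabrb2 (0.0226 to 0.337), and 0.0846 and 0.286 when the summit had to lie in the site (limma). Leaving out any 1 library gave 0.0655 to 0.104 at Grin2a and 0.0646 to 0.107 at Gabrb2.

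The remaining pair of calls lay beside peaks found in all libraries, whose edges passed the 200 bp rule in 1 condition only. The site with the smallest p, chr17:27535121-27535521, lies 13918 bp upstream of Grm4, a presynaptic receptor that lowers cyclic AMP. The peak next to it reached a fold of 28.4, 24.9 and 27.9 in the GR-con libraries and 26.5, 23.6 and 24.0 in the GR-KO libraries, with its summit 399 to 407 bp from the site's centre. Its interval reached 115 to 160 bp into the site in GR-con and 230 to 240 bp in GR-KO, and only the latter passed the 200 bp rule. The score difference was 3.45 (SE 0.115, adjusted p = 0.000279 from limma) by that rule, and −0.36 (adjusted p = 0.510) when 1 bp of overlap sufficed, the lowest and highest adjusted p over the alternatives being 0.000243 and 0.510. Weak summits of fold 2.30 and 3.71 also fell inside the site in GR-KO 1 and 2 and none in the other libraries, with a difference of 0.63 (adjusted p = 0.449 from limma) when the summit had to lie in the site.

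Likewise, the site called lower, chr14:35009106-35009506 in an intron of Grid1, was covered over 293 to 317 bp in GR-con and 15 to 104 bp in GR-KO by a peak centred 407 to 439 bp away. The fold of that peak was 6.05, 7.18 and 7.77 in GR-con and 5.96, 5.49 and 4.86 in GR-KO. The score difference was −1.33 (SE 0.143, adjusted p = 0.0267 from limma; 0.0192 to 0.582 over the alternatives), and it was −0.16 with an overlap of 1 bp. Summits inside the site were also found, of fold 4.44, 3.18 and 3.89 in GR-con and of fold 2.89 in GR-KO 1 alone, and the difference by that rule was −0.82 (adjusted p = 0.318 from limma). With 1 library left out the adjusted p was 0.0642 to 0.0748, with no matching site in the run without GR-con 1. Another Grid1 site, chr14:35326311-35326711, named here after its values were seen, was called lower when the summit had to lie in the site. There the fold was 6.99, 5.27 and 4.73 in GR-con and no peak had its summit in the site in GR-KO (score difference −1.50, adjusted p = 0.0467 from limma). This site passed the filter of at least 2 libraries through GR-con alone, so its difference was fixed in part by that filter.

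**Figure D5:**
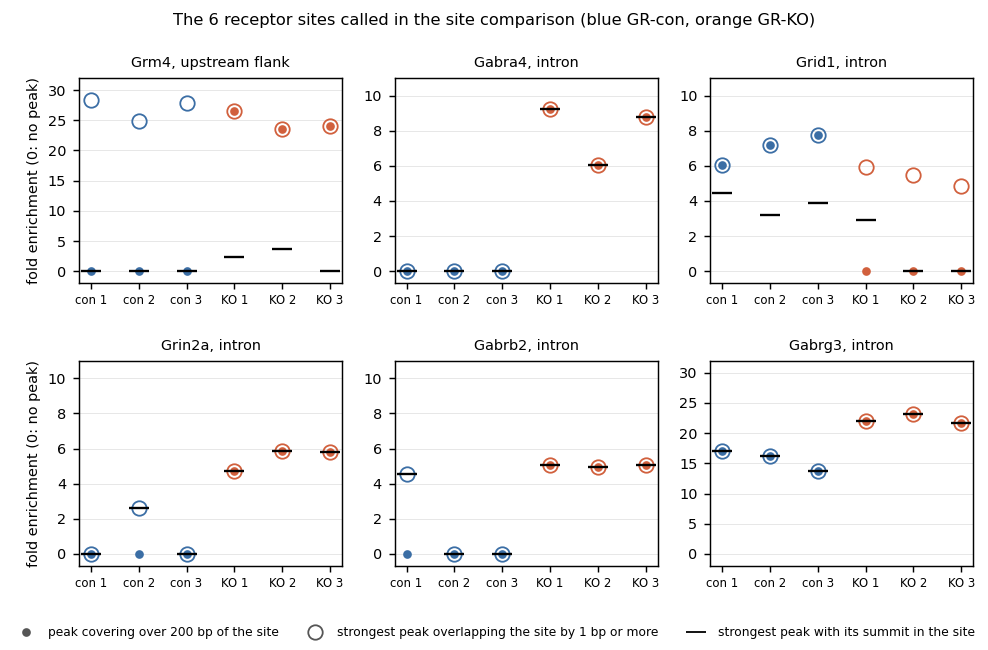
Fold enrichment (vertical axis, 0 where there was no peak) in the 6 libraries (horizontal axis, blue GR-con, orange GR-KO) at the 6 receptor sites called. Filled points are peaks covering over 200 bp of the site, open circles the strongest peak that overlaps it by at least 1 bp, and dashes the strongest peak with its summit inside. Filled and open symbols coincide in every library at Gabra4 and Gabrg3, and at Grm4 the open circles lie at 23.6 to 28.4 in both conditions.

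By the 200 bp rule, a peak in every library of 1 condition and in none of the other was found at 8 receptor sites for GR-con (1.12%, against 1.31% of all sites) and 8 for GR-KO (1.12%, against 0.514%). For GR-con the order of these shares turned with the rule, at 14 receptor sites (1.51%, against 1.10%) with an overlap of 1 bp and 16 (1.80%, against 1.15%) with the summit in the site. For GR-KO it did not, at 13 sites under either rule (1.40%, against 0.555%, and 1.46%, against 0.618%). Sites of either kind met the requirement of a peak in at least 2 libraries only through the condition that had the peaks. These shares were fixed in part by that requirement and support nothing by themselves. The GR-KO sites included those at Grm4, Gabra4, Grin2a, Gabrb2, Gabrg3, Grin2b and Grm3. The first 4 are described above, and GR-con peaks that fell short of the 200 bp rule reached into those at Grm4, Grin2a and Gabrb2. The rest, including a further intronic Gabrg3 site, were weak, with a mean percentile of 19.2 to 30.6 in GR-KO. The GR-con sites included those at Grid1 (2 sites), Grik4, Gria2, Gabrd, Grm4 and Grm3. At this Grm4 site, chr17:27480468-27480868, GR-KO 2 and 3 had peaks of fold 3.60 and 2.43 that covered 195 and 184 bp. The fold in GR-con was 2.65, 3.57 and 4.40, so the conditions overlapped there. The Grik4 site, chr9:42601500-42601900 in an intron of this kainate receptor gene, reached a fold of 5.86, 6.02 and 4.40 in the GR-con libraries, and GR-KO 2 had a peak of fold 3.60 that covered 158 bp (score difference −1.07, SE 0.157, adjusted p = 0.0599 from limma). The Gria2 site, chr3:80663713-80664113 in the downstream flank, reached a fold of 4.54, 3.39 and 4.23 in the GR-con libraries and no overlapping peak in GR-KO (score difference −0.78, SE 0.160, adjusted p = 0.143 from limma). Likewise no GR-KO peak overlapped the site downstream of Gabrd, the delta subunit gene of tonic GABA-A receptors, where GR-con had folds of 3.78, 3.57 and 3.89.

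Gabrb1 held 2 of the 5 receptor sites with the smallest p among those lower in GR-KO. The site chr5:71722845-71723245, in an intron 23113 bp downstream of the TSS, reached a fold of 7.28, 7.67 and 5.68 in the GR-con libraries. In GR-KO the peaks there were of fold 3.19, 3.49 and 2.75 and the conditions did not overlap, although only GR-KO 3 passed the 200 bp rule. The score difference was −1.12 (SE 0.199, adjusted p = 0.0989 from limma). The other, chr5:71970415-71970815, lies 270683 bp from the TSS and reached 14.5, 14.5 and 9.81 in the GR-con libraries and 7.0, 4.48 and 4.39 in GR-KO, again without overlap (score difference −0.88, SE 0.177, adjusted p = 0.135 from limma). Neither was called.

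The 23113 bp site held a match to the GR palindrome, GNACA and its reverse complement 3 bases apart, shown in capitals with ACTGTA on the forward strand of GRCm38.
Gabrb1 intron: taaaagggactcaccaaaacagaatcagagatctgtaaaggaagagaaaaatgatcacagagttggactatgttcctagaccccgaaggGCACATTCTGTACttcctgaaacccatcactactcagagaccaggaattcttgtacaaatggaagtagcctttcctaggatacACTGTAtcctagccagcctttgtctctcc

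Matches were sought on both strands within 100 bp of the centre of each site. The GR palindrome was found in 5 of 717 receptor sites (0.697%), against 0.645% of all sites. Besides the Gabrb1 site above, they were a second Gabrb1 intron site, an exon of Gria2, the Gabrd promoter and a site 4502 bp upstream of Gabrr2, a rho subunit gene. At the Gabrr2 site the mean percentile was 86.9 in GR-con and 35.8 in GR-KO, where 2 of 3 libraries had a peak (score difference −1.39, adjusted p = 0.175 from limma). At the other 3 the score difference was −0.07 at the Gria2 exon (adjusted p = 0.841), −0.11 at the second Gabrb1 site (adjusted p = 0.915) and −0.34 at the Gabrd promoter (adjusted p = 0.807 from limma). The matches are in capitals, with 15 bases on each side.
Gabrr2 upstream: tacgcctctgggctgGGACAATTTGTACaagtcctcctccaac
Gria2 exon: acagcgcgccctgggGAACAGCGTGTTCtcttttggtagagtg
Gabrd promoter: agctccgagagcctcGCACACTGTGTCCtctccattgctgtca
Gabrb1 distal intron: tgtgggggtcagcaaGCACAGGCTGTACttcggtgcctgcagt

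REST is a repressor that keeps neuronal genes silent in other cells, and its element (TCAGNACC, 2 bases, GGACAG) was found in 4 receptor sites (0.558%), against 0.184% of all sites. They included the promoter of Grin1, shown on the reverse strand, and an intron of Grid1. The Grin1 site stood at percentile 69.8 in GR-con and 70.9 in GR-KO, with a peak in all 6 libraries. None of the 4 was called.
Grin1 promoter: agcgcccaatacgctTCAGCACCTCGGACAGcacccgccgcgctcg

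The other letters searched were counted in the same way. AP-1 (TGANTCA) was found in 6.0% of receptor sites and 6.03% of all sites, and the E box (CANCTG) in 42.3% and 42.0%. NFI (TTGGC, 5 bases and its reverse complement) was in 0 of 717 receptor sites and 0.0563% of all. ACTGTA and AGAACA, both taken from an earlier look at these data, were in 9.21% and 17.3% of receptor sites and in 7.38% and 16.9% of all sites. Among sites higher at an unadjusted p under 0.05, ACTGTA was in 13 of the 56 at receptor genes (23.2%) and in 14.7% of all, and among those lower in 2 of the 32 (6.25%) and in 5.57% of all. AGAACA was in 6 of the 56 (10.7%, against 14.0% of all) and in 7 of the 32 (21.9%, against 27.1%), and the GR palindrome in 0 of the 56 (against 0.235%) and in 2 of the 32 (6.25%, against 4.76%). Since both 6-mers were picked from these data, their shares by direction are a description. A match describes the letters only.

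Strong peaks within 20 kb of a receptor gene could belong to a neighbour. The 3 receptor sites of highest mean percentile lay 9123 bp upstream of Grm6, 9166 bp upstream of Grid1 and in the downstream flank of Grin3b. The first of these was 10 bp from the TSS of Zfp879 and the last was 61 bp from that of Abca7. Their folds were 25.0 to 29.5 across the 6 libraries and none was called.

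Genes whose products hold or assist these receptors were examined as a second list of 29, which included AMPA receptor auxiliary subunits, Homer scaffolds and gephyrin. Of these, 28 had a promoter peak in all 6 libraries and none of the 28 and 29 tested was called for peak number or promoter rank with limma. At an unadjusted p under 0.05, 5 promoters were lower (17.2%, against 5.23% of all genes) and 2 higher (6.90%, against 4.69%). By the same limit 2 genes had fewer peaks (7.14%, against 3.65%) and 1 more (3.57%, against 3.84%). The median log2 difference in peak number was 0.03, against −0.03 for receptor genes and 0.02 for all genes.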

How the data were processed

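ATAC-seq was run on 6 libraries of sorted V1 astrocyte nuclei, 3 per condition. Per the study's methods, the authors used the ENCODE ATAC-seq pipeline with default settings. The deposited files hold 1 peak list per library, and the submitters' processing notes name the build mm10. Each deposited list gives, per peak, a score, a fold enrichment (a ratio to nearby background) and a p-value and q-value as −log10. No peak ended beyond its chromosome in GRCm38 (0 of 1116429).

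Members and lists were chosen with earlier results of these data known. Gene positions came from GENCODE vM21. Sites reached 200 bp to each side of a summit without overlaps, the best-ranked summits first, with a peak required in at least 2 libraries. The study's own test needs reads, so ranks of the deposited fold were compared with limma 3.58.1 in R 4.3.3 (variance trend, two-sided, Benjamini-Hochberg over all features, adjusted p under 0.05). Peaks per gene were compared as log2(peaks per 100000 + 0.5). All 6 libraries entered each fit, with no block. An exact permutation test of 1 value, 3 libraries against 3, cannot give a p under 0.1. Depth is unknown, so no counting interval is given.

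Some receptor genes enter the counts and are not reported by name here. Genes named were those known from astrocytes, the 3 with the most and the fewest GR-con peaks and the 3 of smallest p in each direction. Sites named were those called, the 5 of smallest p in each direction, up to 10 found in 1 condition only and the 3 of highest percentile. Sequences were read from GRCm38 with pysam 0.24.0 under Python 3.11.15. Alternatives were a q-value under 0.01, equal list lengths, ranking by −log10 p, other overlap and window rules, a replicate block and fits without each library in turn.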

Additional observations from a re-analysis of the deposited data

How the results depend on the processing

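The counts of called receptor sites were small and moved with the rules. Sites called higher numbered 2 with an overlap of 1 bp (0.216%, against 0.0857% of all sites) or the summit in the site (0.225%, against 0.0609%) and 1 with the replicate block (0.139%, against 0.0120%). With 1 library left out they numbered 0 to 3, beside 0.0808 to 0.154% of all sites, and were 0 without GR-KO 1 (against 0.154%). Sites called lower numbered 2 when at least 3 libraries were required (0.319%, against 0.508%), 0 with the replicate block (against 0.0263%) and 0 to 2 with 1 library left out (against 0.251 to 0.358%). GR-con-only sites numbered 14 with an overlap of 1 bp (1.51%, against 1.10%), 16 with the summit in the site (1.80%, against 1.15%) and 12 to 21 with 1 library left out (1.76 to 3.03%, against 2.18 to 2.55%). GR-KO-only sites numbered 13 (1.40%, against 0.555%), 13 (1.46%, against 0.618%) and 11 to 17 (1.59 to 2.50%, against 0.944 to 1.24%). The Grm4 site reversed to −0.36 with an overlap of 1 bp, and the peak intervals given in the report show the cause. Sites called higher numbered 6 with at least 3 libraries (0.957%, against 0.300%; the 5 and another, at Grin2b), 5 with equal list lengths (0.713%, against 0.192%), 4 with the q-value limit (0.580%, against 0.195%; no matching site at Grm4) and 4 when ranked by −log10 p (0.559%, against 0.212%; not that of Gabrb2). The replicate block lost every called receptor site but that of Grm4. The Grin2d promoter was not called with windows of 500 or 1500 bp (0 receptor promoters higher, beside 0.0137% and 0.0523% of all genes), and 0 to 1 were called with 1 library left out (beside 0.0067 to 0.0268%), 1 only without GR-con 3. No receptor gene was called for peak number, and no receptor promoter lower, in any of the 12 alternatives run for each. The replicate numbers are not stated to pair libraries, and deviations of same-numbered libraries correlated at −0.02 to 0.05. Depth is unknown, and a peak missing from 1 list enters as 0.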
